A study of Homo sapiens with 6 samples.

Results

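Interferon-stimulated genes and the genes of antigen presentation by MHC class I were followed in NCI-H69 cells, an established line of human small cell lung cancer with neuroendocrine features. The set holds 43 genes of the 60671 in the deposited tables, named by symbol and found by their Ensembl gene IDs, and all 43 were matched. By role they are 10 interferon receptors and transcription factors, 6 genes of nucleic acid sensing, 18 effectors and 9 genes of class I presentation. The immunoproteasome genes were left out. The libraries came from wild-type NCI-H69 cells kept for 48 h with the vehicle DMSO (3 libraries) or with GNF5 at 20 µM (3 libraries). GNF5 inhibits the ABL kinases from outside their ATP site, through the pocket that holds a myristoyl group. The treatment text of the labels gives the same figure in millimolar, and the conflict was not settled. The labels do not say whether the libraries of a group came from separate cultures, so the p-values measure the spread between these libraries, which may be technical, in a single cell line.

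Cells detect misplaced nucleic acid with sensors such as cGAS, which reads cytosolic DNA and signals through STING, and RIG-I and MDA5, which read RNA and signal through MAVS. Both routes use the kinase TBK1 to activate the factors IRF3 and IRF7, which switch on interferon genes. Secreted interferon binds its receptors and activates a complex that contains STAT2 and IRF9, which induces the effectors through a promoter element called the ISRE, whereas interferon gamma acts through a GAS element and the factor IRF1. Class I molecules, a heavy chain with B2M, show peptides to cytotoxic T cells. TAP1 and TAP2 bring the peptides into the endoplasmic reticulum, and NLRC5 is a transcriptional activator of the class I genes. Neuroendocrine small cell lung cancer is known for low class I expression.

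The ISRE and GAS elements lie in the promoters of several members, and 8 promoters are printed here. They are those of the 7 members that rose or fell and hold at least 2 ISRE matches, and that of IRF1, shown for its GAS match. ISG20, TAP2, ERAP1, IRF9 and IFI35 also rose and hold 1 match each, and theirs are not printed. Each is the 170 bases just before the RefSeq start site (build GRCh38.p14), 5′ to 3′ on the strand of the gene. Capitals mark matches on either strand to the ISRE core, which is GAAA, 2 bases of any kind and GAAA again, or to the GAS core TTCNNNGAA. The IFIT5 match closest to the start runs past the printed stretch.
ISG15 (chr1:1013327-1013496, plus strand): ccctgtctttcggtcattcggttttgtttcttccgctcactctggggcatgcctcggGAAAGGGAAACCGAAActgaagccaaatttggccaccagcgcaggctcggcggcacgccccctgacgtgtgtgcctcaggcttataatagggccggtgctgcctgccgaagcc
IFIT1 (chr10:89392453-89392622, plus strand): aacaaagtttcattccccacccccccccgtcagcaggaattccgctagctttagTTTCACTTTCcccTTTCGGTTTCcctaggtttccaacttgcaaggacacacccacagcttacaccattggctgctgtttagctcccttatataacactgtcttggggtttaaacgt
IFIT5 (chr10:89414398-89414567, plus strand): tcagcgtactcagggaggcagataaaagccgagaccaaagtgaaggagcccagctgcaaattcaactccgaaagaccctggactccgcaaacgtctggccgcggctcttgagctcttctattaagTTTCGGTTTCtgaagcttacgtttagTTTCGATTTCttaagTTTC
TAPBP (chr6:33314079-33314248, minus strand): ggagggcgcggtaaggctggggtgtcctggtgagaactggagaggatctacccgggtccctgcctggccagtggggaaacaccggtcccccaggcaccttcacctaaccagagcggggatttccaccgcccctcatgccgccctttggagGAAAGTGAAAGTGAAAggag
IRF1 (chr5:132490774-132490943, minus strand): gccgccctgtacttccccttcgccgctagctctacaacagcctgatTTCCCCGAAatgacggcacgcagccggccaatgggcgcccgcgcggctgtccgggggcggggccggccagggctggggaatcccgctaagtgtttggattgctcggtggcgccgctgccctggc
IFI6 (chr1:27672193-27672362, minus strand): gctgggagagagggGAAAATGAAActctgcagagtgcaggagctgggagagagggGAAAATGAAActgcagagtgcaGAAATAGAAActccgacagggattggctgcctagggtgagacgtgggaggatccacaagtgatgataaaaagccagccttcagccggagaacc
OAS3 (chr12:112938304-112938473, plus strand): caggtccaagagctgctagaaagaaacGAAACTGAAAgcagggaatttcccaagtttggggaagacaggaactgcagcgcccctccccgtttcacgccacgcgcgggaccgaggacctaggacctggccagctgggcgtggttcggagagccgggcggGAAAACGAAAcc
B2M (chr15:44711347-44711516, plus strand): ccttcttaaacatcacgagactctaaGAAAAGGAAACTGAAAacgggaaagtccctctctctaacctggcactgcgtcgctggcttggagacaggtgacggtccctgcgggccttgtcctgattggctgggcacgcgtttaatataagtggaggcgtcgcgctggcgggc

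Of the 43 members, 31 had a promoter in the table (250 bases before to 50 after the start). The ISRE core was found in 18 of these 31, taking the first listed promoter of each member. It was in 3.57% of all 35116 promoters in the table, and in 2.72% of those of tested genes. The members were chosen as interferon-stimulated and antigen presentation genes, so this excess is not an independent result. By role, the core was in 12 of 14 effector promoters, 5 of 7 class I promoters, 1 of 4 sensing promoters and 0 of 6 promoters of receptors and factors. ISG15 held overlapping matches that start 113 and 107 bases before the start site, B2M a like pair at 144 and 138, and TAPBP a pair at 20 and 14. The GAS core was found in 7 of the 31 promoters, in 7.66% of all and in 6.19% of those of tested genes. In IRF1 the GAS core was at 124 bases before the start. A match is a description of letters, and binding was not measured.

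Levels below are counts per 1000000 counts (CPM, TMM-normalised), and each log2 fold change sets GNF5 over DMSO and carries its standard error (SE). A gene is said to have risen or fallen where edgeR's quasi-likelihood test gave an adjusted p under 0.05 over all genes tested. The libraries held 46148701 to 60697602 counts, so that 3 counts correspond to 0.0496 to 0.0647 CPM. The expression filter kept 20734 genes and 36 of the 43 members. Of these 36, 33 were over its level in all 6 libraries, and STING1, IFIT2 and TAP2 were under it in at least 1. All 8 neuroendocrine markers were detected in every library. Of these GRP fell (-1.24) and SYP fell (-0.27), NCAM1 rose (0.59) and DLL3 rose (0.26), and INSM1, CHGA and UCHL1 were among those not called. Of 10 leukocyte markers, CD3E, FCGR3A, MS4A1 and NKG7 had 0 counts in all libraries. The summed level of the leukocyte list was 4.64 to 4.98 CPM with DMSO and 3.24 to 4.07 CPM with GNF5. Of that list PTPRC fell (-2.25) and CD14, which held most of the sum, was not called. The fibroblast list summed to 120.3 to 125.9 CPM with DMSO and 64.8 to 72.1 with GNF5, and most of this sum was COL1A2, which fell (-0.91), while COL1A1 rose (0.87). The lung epithelium list summed to 9.08 to 9.56 and 3.97 to 4.94 CPM, a fall held mostly by FOXJ1, which fell from 4.81 to 0.601 CPM, while NAPSA rose (0.86). The part of these in the changes below was not tested. Less RNA per cell and fewer cells with the RNA cannot be told apart in such bulk libraries.

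With GNF5, most members that changed rose by modest amounts, while NLRC5 rose 4.44-fold and STING1 fell about 4-fold, both from low levels. Of the 36 members tested, 24 were called (66.7%), against 61.6% of all genes tested, so the share of called genes was near the background. In direction, 19 rose (52.8%, against 31.0% of all genes tested) and 5 fell (13.9%, against 30.7%). The members were chosen with earlier results of these data known, so these shares are a description and not a test of the set. The median log2 fold change over the tested members was 0.33, against 0.01 over all genes tested. The groups did not overlap for 23 of the 36, or 63.9%, against 65.9% of all genes tested. Called changes of at least 2-fold were seen for IRF1, ISG15, IFIT1, TAP2 and NLRC5, all higher, and for STING1, which was lower. Over all genes tested, 2414 of 20734 (11.6%) had such a change, 1026 of them higher and 1388 lower.

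**Figure D1:**
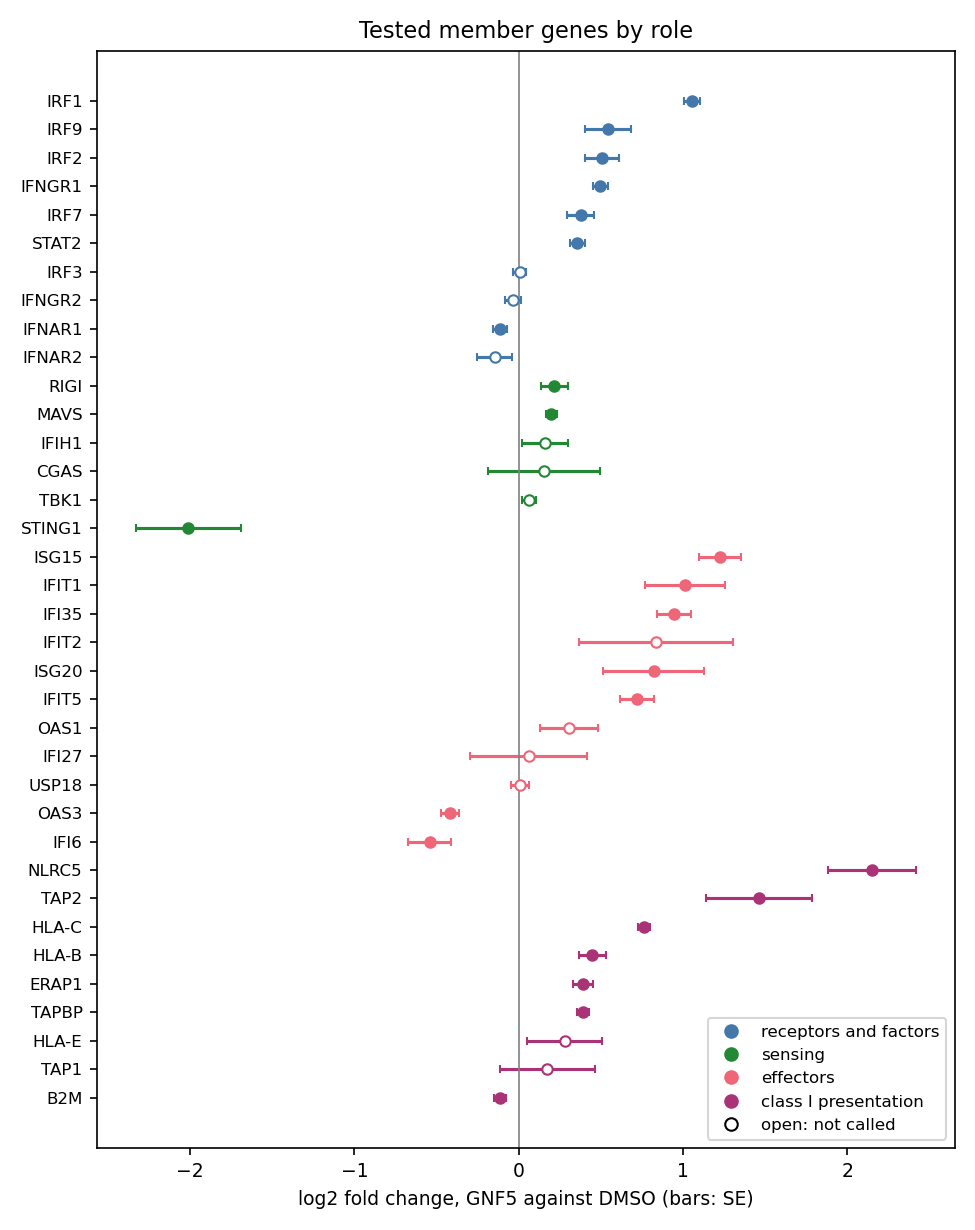
Log2 fold change of GNF5 against DMSO (x axis, bars are SE) for the 36 tested members (y axis), coloured by role, with open circles for genes that were not called. STING1 lies apart on the left at -2.01, NLRC5 on the right at 2.15, and most filled circles lie right of 0.

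The set spanned a wide range of levels. Per exon length, in fragments per 1000 exon bases per 1000000 counts (FPKM), B2M was highest with DMSO at 35.9 and HLA-C followed at 33.3, then TAPBP at 19.9 and IRF3 at 16.1. At the low end NLRC5 stood at 0.025 FPKM and MX1 at 0.01 FPKM, and IFITM1 and IFITM2 had no counts. These lengths are those of all annotated exons of a gene joined, which understates a gene whose main transcript uses only part of them. Mean CPM was under 1 in both groups for 13 of the 43 members, of which 10 were effectors. Most members at such low levels were thus effectors, with either treatment.

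**Figure D2:**
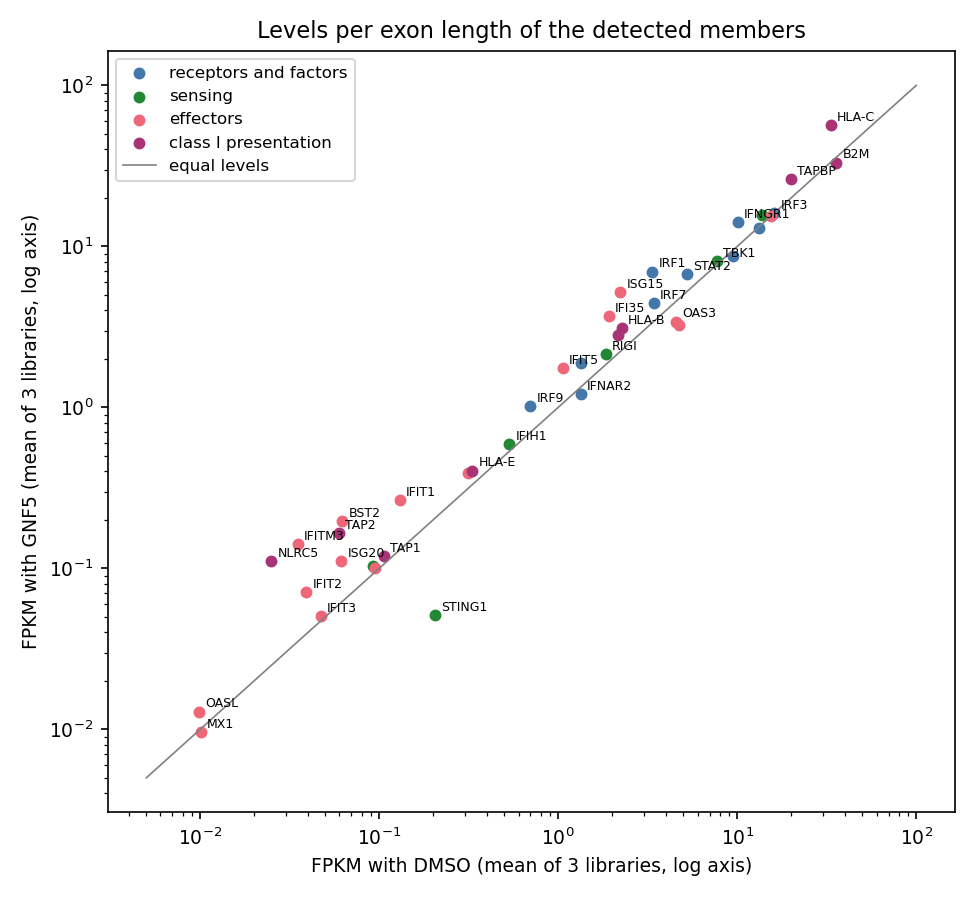
Mean FPKM with DMSO (x axis) against GNF5 (y axis), both log axes, for the 41 members with counts, coloured by role, with names where they do not collide. B2M, HLA-C and TAPBP form the top end, and STING1 is the point farthest below the line of equal levels.

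Among the receptor genes IFNGR1 rose and IFNAR1 fell. IFNGR1, the ligand-binding chain of the interferon gamma receptor (ENSG00000027697, chromosome 6, 137197485 to 137219449, GRCh38), had 32.3, 32.4 and 34.0 CPM with DMSO and 48.9, 45.9 and 44.5 with GNF5. All GNF5 libraries were above all DMSO libraries, and the gene rose by 0.50 ± 0.0475 on the log2 scale (edgeR adjusted p = 3.83e-10). IFNGR2, the partner chain, was at 32.5 ± 0.552 and 31.7 ± 1.1 CPM and was not called. IFNAR1, a chain of the receptor for type I interferon (chromosome 21, 33324429 to 33359864), had 63.0, 66.5 and 66.1 CPM with DMSO and 60.8, 59.5 and 60.4 with GNF5. The groups did not overlap, but the fall was small, at -0.11 ± 0.0405 (edgeR adjusted p = 0.0162). That call was lost without DMSO replicate 3 (edgeR adjusted p = 0.0563) and without GNF5 replicate 2 (0.0612), and its adjusted p ran from 0.00388 to 0.0612 over 14 alternatives. IFNAR2, the other chain, was not called (-0.14 ± 0.107). Of its exon bases 44.2% are shared with the IFNAR2-IL10RB model, so its count is incomplete.

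Among the transcription factors, IRF1 changed most. IRF1, which drives many interferon gamma targets (ENSG00000125347, chromosome 5, 132481609 to 132490777), had 24.9, 26.1 and 27.2 CPM with DMSO and 53.1, 56.3 and 53.2 with GNF5. That is a 2.08-fold rise with no overlap (log2 fold change 1.05 ± 0.0477, edgeR adjusted p = 2.81e-17), and it stayed between 1.02 and 1.08 on the log2 scale under the 14 alternatives. STAT2, the partner of IRF9 in the type I complex (chromosome 12, 56341597 to 56360167), had 32.7, 32.4 and 31.9 CPM with DMSO and 42.1, 41.4 and 40.9 with GNF5. It rose by 0.36 ± 0.045, and all of its GNF5 libraries were higher. IRF9, which gives that complex its DNA binding (chromosome 14, 24161265 to 24166565), had 2.66, 2.78 and 2.05 CPM with DMSO and 3.24, 3.69 and 4.01 with GNF5. It rose by 0.54 ± 0.14, again with no overlap, although a gene model without a symbol shares 42.2% of its exon bases.

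IRF7, the factor that amplifies type I interferon, and IRF2, often an antagonist of IRF1, also rose. IRF7 (chromosome 11, 612553 to 615983) had 9.16, 8.04 and 9.63 CPM with DMSO and 12.3, 11.2 and 11.3 with GNF5 (log2 fold change 0.38 ± 0.0821). IRF2 (chromosome 4, 184387729 to 184474550) had 4.09, 4.2 and 4.01 CPM with DMSO and 5.74, 5.54 and 6.19 with GNF5 (0.51 ± 0.103). Neither gene's groups overlapped. IRF3, the factor activated directly by TBK1 (chromosome 19, 49659569 to 49665875), had overlapping groups. It had 62.2, 60.7 and 60.3 CPM with DMSO and 62.7, 60.99 and 60.4 with GNF5. The difference was 0.01 ± 0.0403 on the log2 scale (edgeR adjusted p = 0.899), and its sign turned with upper-quartile factors (-0.02). Of the 10 receptors and factors, 6 rose, 1 fell and 3 were not called, with a median log2 fold change of 0.37. The share that rose was 60.0%, against 31.0% of all genes tested.

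In nucleic acid sensing, STING1 fell and MAVS and RIGI rose. The DNA sensor gene CGAS and its adaptor STING1 were near 1 CPM or under it in both groups, and MAVS and TBK1 were well above it. STING1, the adaptor of cGAS (ENSG00000184584, chromosome 5, 139475533 to 139482935), had 56, 64 and 52 counts in the DMSO libraries and 14, 17 and 7 in the GNF5 libraries. Its level was 0.992, 1.06 and 0.902 CPM against 0.238, 0.367 and 0.134 CPM, with no overlap. The means differed 4-fold, or -2.01 ± 0.318 on the log2 scale (edgeR adjusted p = 3.2e-06), and the log2 value ranged from -2.37 to -1.72 over the 13 alternatives that kept the gene. CGAS, the DNA sensor itself (chromosome 6, 73413515 to 73452297), had only 22, 16 and 29 counts with DMSO and 23, 25 and 19 with GNF5. A difference was not detectable at this depth (log2 fold change 0.15 ± 0.342), and its sign turned when DMSO replicate 2 (-0.07) or GNF5 replicate 2 (-0.02) was left out.

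MAVS, the mitochondrial adaptor of the RNA sensors (chromosome 20, 3846799 to 3876123), had 166.1, 161.5 and 157.9 CPM with DMSO and 186.9, 184.4 and 185.8 with GNF5. It rose by 0.20 ± 0.0333 (edgeR adjusted p = 7.59e-06), with every GNF5 library higher. RIGI, which encodes the RNA sensor RIG-I (chromosome 9, 32455302 to 32526208), had 8.61, 8.85 and 8.15 CPM with DMSO and 10.4, 10.0 and 9.35 with GNF5. Its rise of 0.22 ± 0.0807 (edgeR adjusted p = 0.0211) was lost without DMSO replicate 3 (edgeR adjusted p = 0.0967) or GNF5 replicate 1 (0.0804), over a range of 0.0167 to 0.0967. IFIH1, which encodes the sensor MDA5, was not called (0.16 ± 0.141). TBK1, the kinase shared by both routes, had 49.8, 48.5 and 49.6 CPM with DMSO and 52.9, 52.0 and 49.6 with GNF5, so its groups overlapped, and it was not called (0.06 ± 0.0432). Of the 6 sensing genes, 2 rose, 1 fell and 3 were not called, with a median of 0.16. That is 3 of 6 called, a share below the 61.6% of all genes tested. The share that rose, 33.3%, was near the 31.0% of all genes tested, and 16.7% fell, against 30.7%. Without DMSO replicate 3, or without GNF5 replicate 1, 1 of the sensing genes rose.

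Among the effectors that passed the filter, ISG15 rose most. ISG15, a ubiquitin-like protein that is attached to other proteins (ENSG00000187608, chromosome 1, 1001138 to 1014540), had 1.84, 1.9 and 2.05 CPM with DMSO and 4.55, 4.57 and 4.45 with GNF5. The GNF5 libraries lay close together and far above the others, a 2.34-fold rise (log2 fold change 1.23 ± 0.127, edgeR adjusted p = 1.89e-09). IFI35, an interferon-induced leucine zipper protein (chromosome 17, 43006740 to 43014456), had 3.54, 4.1 and 3.61 CPM with DMSO and 7.07, 7.44 and 7.22 with GNF5. It rose by 0.95 ± 0.102 with no overlap. IFIT5, a member of a family that binds RNA (chromosome 10, 89414568 to 89420997), had 4.11, 4.46 and 4.25 CPM with DMSO and 7.68, 6.36 and 7.08 with GNF5, a rise of 0.72 ± 0.103. Its relative IFIT1, which recognises the ends of viral RNA, was lower in level, with 34, 34 and 37 counts with DMSO and 77, 69 and 45 with GNF5. IFIT1 rose by 1.01 ± 0.244, although 1 GNF5 library was nearer to the DMSO libraries than the others. ISG20, an exonuclease that degrades RNA, had 25, 30 and 22 counts against 30, 52 and 39. Its rise (0.82 ± 0.308, edgeR adjusted p = 0.0219) rested on single libraries, since it was lost without GNF5 replicate 2 (log2 fold change 0.50, edgeR adjusted p = 0.202) and without DMSO replicate 3 (adjusted p = 0.0744), over a range of 0.00426 to 0.202.

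**Figure D3:**
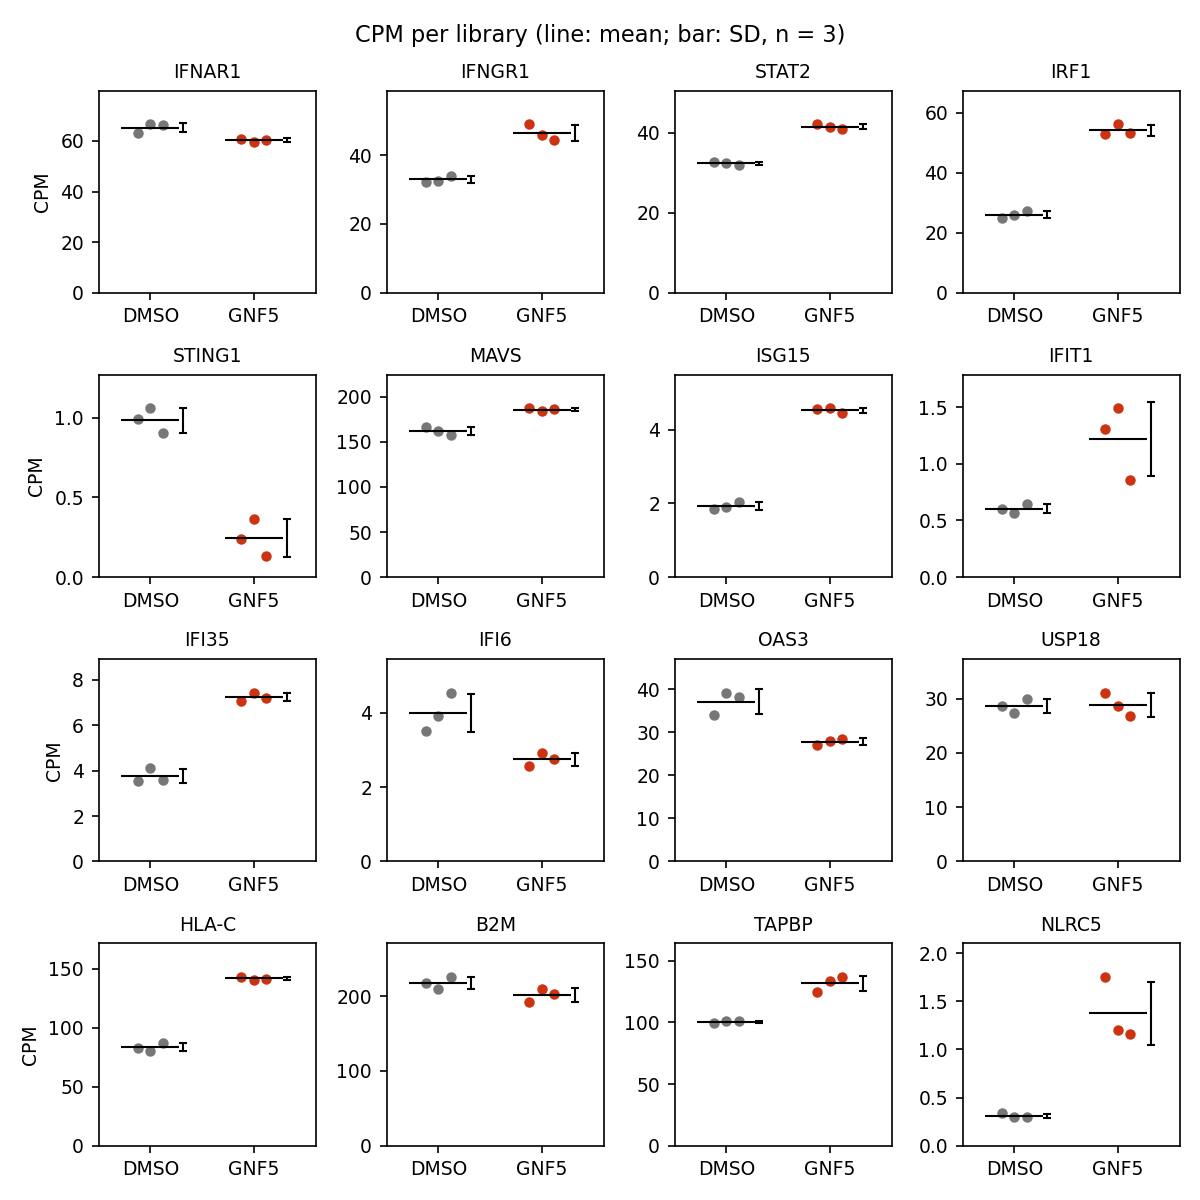
CPM of 16 members (y axes from 0) in the 3 DMSO and 3 GNF5 libraries, where points are libraries, lines are means and bars are SD. ISG15, IRF1 and HLA-C separate widely upward, STING1, IFI6 and OAS3 separate downward, and the USP18 groups overlap.

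Effectors that moved the other way were also clear of overlap. OAS3, which makes the second messenger that activates RNase L (ENSG00000111331, chromosome 12, 112938444 to 112973251), had 34.0, 39.2 and 38.3 CPM with DMSO and 27.0, 28.1 and 28.5 with GNF5. It fell by 0.42 on the log2 scale (SE 0.0534, edgeR adjusted p = 9.64e-08). IFI6, a small membrane protein (chromosome 1, 27666064 to 27672198), had 3.52, 3.92 and 4.55 CPM with DMSO and 2.57, 2.93 and 2.75 with GNF5, at -0.54 ± 0.129. Both genes hold the ISRE core in the promoters printed above, as do ISG15, IFIT1 and IFIT5, which rose. USP18, the protease that removes ISG15 and dampens the receptor (chromosome 22, 18150170 to 18177397), was the best expressed effector per length with DMSO, at 15.4 FPKM. It had 28.7, 27.3 and 30.0 CPM with DMSO and 31.1, 28.6 and 26.8 with GNF5, and it was not called (log2 fold change 0.01 ± 0.0558, with a sign that turned to -0.02 with upper-quartile factors). USP18 has a near-identical relative, USP41, that could take part of its reads. OAS1, IFIT2 and IFI27 were not called, at 0.31 ± 0.179, 0.84 ± 0.469 and 0.06 ± 0.359.

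The 7 effectors that the filter removed were close to the limit of counting. IFITM1 and IFITM2, membrane proteins that block virus entry, had 0 counts in all 6 libraries, which allows up to 0.00903 CPM. They lie side by side on chromosome 11 and share 351 exon bases on the same strand, and near-identical sequence could have left further reads uncounted. MX1, a GTPase widely used to mark an interferon response, had 15 counts with DMSO and 14 with GNF5, each summed over 3 libraries. IFIT3 had 21 and 21, and OASL 6 and 7. BST2, which tethers virus particles, had 12 and 33 counts, a scaled ratio of 3.05 (95% exact interval 1.53 to 6.48, counting error only), and IFITM3 had 7 and 27, a ratio of 4.28 (1.82 to 11.6). Of the 27 IFITM3 counts, GNF5 replicate 2 held 1 and the other GNF5 libraries 14 and 12. With no expression filter both passed, with edgeR adjusted p values of 0.0402 and 0.0291, and the effectors that rose numbered 7. With the filter, 11 effectors were tested, of which 5 rose, 2 fell and 4 were not called (median 0.72), and the share that rose was 45.5%, against 31.0% of all genes tested.

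In class I presentation, the heavy chain HLA-C rose and its partner B2M fell slightly. HLA-C (ENSG00000204525, chromosome 6, 31268749 to 31272130) had 83.0, 80.3 and 87.5 CPM with DMSO and 143.2, 140.8 and 141.8 with GNF5. It rose 1.7-fold with no overlap (log2 fold change 0.76 ± 0.0371, edgeR adjusted p = 1.46e-16). B2M, the invariant light chain (chromosome 15, 44711487 to 44718877), had 218.2, 210.0 and 225.7 CPM with DMSO and 191.8, 210.2 and 202.6 with GNF5. These groups overlapped at 1 library, and the fall of 0.11 on the log2 scale (SE 0.0366, edgeR adjusted p = 0.00874) was lost without DMSO replicate 3 (edgeR adjusted p = 0.0732) or GNF5 replicate 1 (0.0658), over a range of 0.00153 to 0.0732. The HLA-C count divided by the B2M count was 0.38, 0.382 and 0.388 in the DMSO libraries and 0.746, 0.67 and 0.7 in the GNF5 libraries.

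HLA-B, another classical heavy chain (chromosome 6, 31269491 to 31357188), stood far below HLA-C, at 2.26 against 33.3 FPKM with DMSO. It had 6.62, 7.04 and 7.04 CPM with DMSO and 9.21, 9.77 and 9.32 with GNF5, and it rose by 0.45 ± 0.0833 with no overlap. HLA-E, a heavy chain read by natural killer cells, had 51, 68 and 50 counts with DMSO and 48, 64 and 71 with GNF5 and was not called (0.28 ± 0.229). Class I genes resemble each other and vary between people, so reads can be lost or shared between them, and levels set across these genes are uncertain.

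NLRC5 had the largest rise of the set, from a very low level. NLRC5 (ENSG00000140853, chromosome 16, 56989485 to 57083531) had 19, 18 and 17 counts in the DMSO libraries and 103, 56 and 61 in the GNF5 libraries. Its mean level rose from 0.31 ± 0.0232 to 1.38 ± 0.329 CPM, 4.44-fold, with no overlap (log2 fold change 2.15 ± 0.266, edgeR adjusted p = 5.08e-08). TAP2, a chain of the peptide transporter, had 7, 32 and 28 counts with DMSO and 73, 41 and 54 with GNF5 and rose by 1.46 ± 0.325. The DMSO library with 7 counts stood apart, and without it the log2 fold change was 1.05. A gene model without a symbol shares 32.2% of the exon bases of TAP2. TAP1, the other chain, had 33, 27 and 29 counts with DMSO and 35, 25 and 31 with GNF5 and was not called (0.18 ± 0.287). Mean levels were 0.511 and 0.576 CPM for TAP1 and 0.38 and 1.05 CPM for TAP2, so both stayed low.

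TAPBP, which encodes tapasin, the bridge between the transporter and the heavy chain (chromosome 6, 33299694 to 33314387), was well expressed. It had 99.7, 100.9 and 100.7 CPM with DMSO and 124.9, 133.2 and 136.8 with GNF5, and it rose by 0.39 ± 0.0372 with every GNF5 library higher. ERAP1, which trims peptides in the endoplasmic reticulum (chromosome 5, 96760810 to 96808100), had 16.5, 18.4 and 16.3 CPM with DMSO and 23.3, 22.1 and 21.6 with GNF5. It also rose by 0.39 ± 0.0616. Of the 9 class I genes, 6 rose, 1 fell and 2 were not called, with a median of 0.39, and 66.7% rose, against 31.0% of all genes tested. The summed level of the 9 was 419 to 439.3 CPM with DMSO and 496.9 to 520.1 with GNF5, a sum that B2M and HLA-C dominate.

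Members with the ISRE core moved in both directions. Of the 18 members with an ISRE core, 7 rose, 3 fell, 3 were not called and 5 were not tested, and the 3 that fell were IFI6, OAS3 and B2M. Over all tested genes with a promoter in the table, taking the first listed promoter of each symbol, 142 of 337 with the core rose (42.1%) and 109 fell (32.3%), against 34.7% and 34.1% of the 12446 without it. Their median log2 fold changes were 0.08 and 0.00. These are descriptions with no test.

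Other genes of the pathway, from lists chosen with earlier results of these data known, also moved in both directions. Each share below stands against 61.6% called, 31.0% higher and 30.7% lower of all genes tested. Of 12 interferon genes, 10 had 0 counts and none passed the filter. Reads that map to several places are left out, so 0 counts for interferon genes of similar sequence need not mean absence. IFNB1, which encodes interferon beta and was singled out after its values were seen, had 0, 1 and 3 counts with DMSO and 8, 11 and 7 with GNF5. The scaled ratio was 7.2 (95% exact interval 2.5 to 28.4, counting error only), and the edgeR adjusted p was 0.00564 with no expression filter. In JAK-STAT signalling 7 of 16 tested genes rose (43.8%) and 3 fell (18.8%), and the share called, 62.5%, was near the background. Its members named here are the kinases JAK1 and JAK2, both higher (0.51 ± 0.0459 and 0.65 ± 0.0852). Among other interferon regulatory factors and their binding partners 4 of 7 rose (57.1%) and 1 fell (14.3%), with IRF2BP2, a corepressor, higher by 0.65 ± 0.0386.

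Of 29 further interferon-stimulated genes tested, 17 rose (58.6%) and 5 fell (17.2%), with a median of 0.35. The extremes were GBP2 and CMPK2, named after their values were seen. GBP2 had 6, 4 and 4 counts with DMSO and 36, 37 and 34 with GNF5 (3.055 ± 0.405). CMPK2 had 92, 110 and 146 counts with DMSO and 58, 36 and 51 with GNF5 (-1.118 ± 0.203). PARP10, an ADP-ribosyltransferase, rose from 2.23 ± 0.268 to 7.29 ± 0.927 CPM, whereas SAMD9, an antiviral factor, fell from 33.6 ± 0.282 to 17.2 ± 1.68 CPM. Of 14 tested genes on a list of other nucleic acid sensing and signalling genes, 6 rose (42.9%) and 5 fell (35.7%). The RNA-activated kinase EIF2AK2 was higher (0.44 ± 0.0433) and the stress granule protein G3BP1 lower (-0.34 ± 0.0319). Of 11 tested genes on a list for nucleic acid clearance, not all of them nucleases, 3 rose (27.3%) and 5 fell (45.5%). The lysosomal nuclease DNASE2 was higher (0.71 ± 0.0391) and the DNA-binding protein BANF1 lower (-0.55 ± 0.0399).

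Peptide handling outside the set gave 8 higher (66.7%) and 2 lower (16.7%) of 12 tested, with a median of 0.44. ERAP2, the partner of ERAP1, rose from 6.38 ± 0.703 to 21.5 ± 0.121 CPM, and CANX, the chaperone calnexin, from 1257 ± 15.5 to 1915 ± 53.3. Of the 13 genes of class II presentation 7 were tested, with 2 higher (28.6%) and 3 lower (42.9%). RFX5, a factor that binds class I and class II promoters, fell by 0.67 on the log2 scale (SE 0.0398), and its partner RFXAP rose by 0.33 ± 0.087. Of 13 NF-kB genes 2 rose (15.4%) and 5 fell (38.5%), and the share called, 53.8%, was below the background (median -0.19). Among them were TNFAIP3, a feedback inhibitor, and NFKB2, a subunit, at -0.56 ± 0.0586 and -0.55 ± 0.0674. Of 14 chemokine and checkpoint ligand genes 5 were tested, with 1 higher (20.0%) and 2 lower (40.0%), and the share called, 60.0%, was near the background. CXCL10, a chemokine induced by interferon gamma that was also singled out after its values were seen, had 14, 12 and 9 counts with DMSO and 0 in each GNF5 library, and the filter removed it. ULBP1, a stress ligand for natural killer cells, rose from 5.5 ± 0.881 to 17.0 ± 0.624 CPM, and MICB, another such ligand, fell by 0.59 (SE 0.0709).

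**Figure D4:**
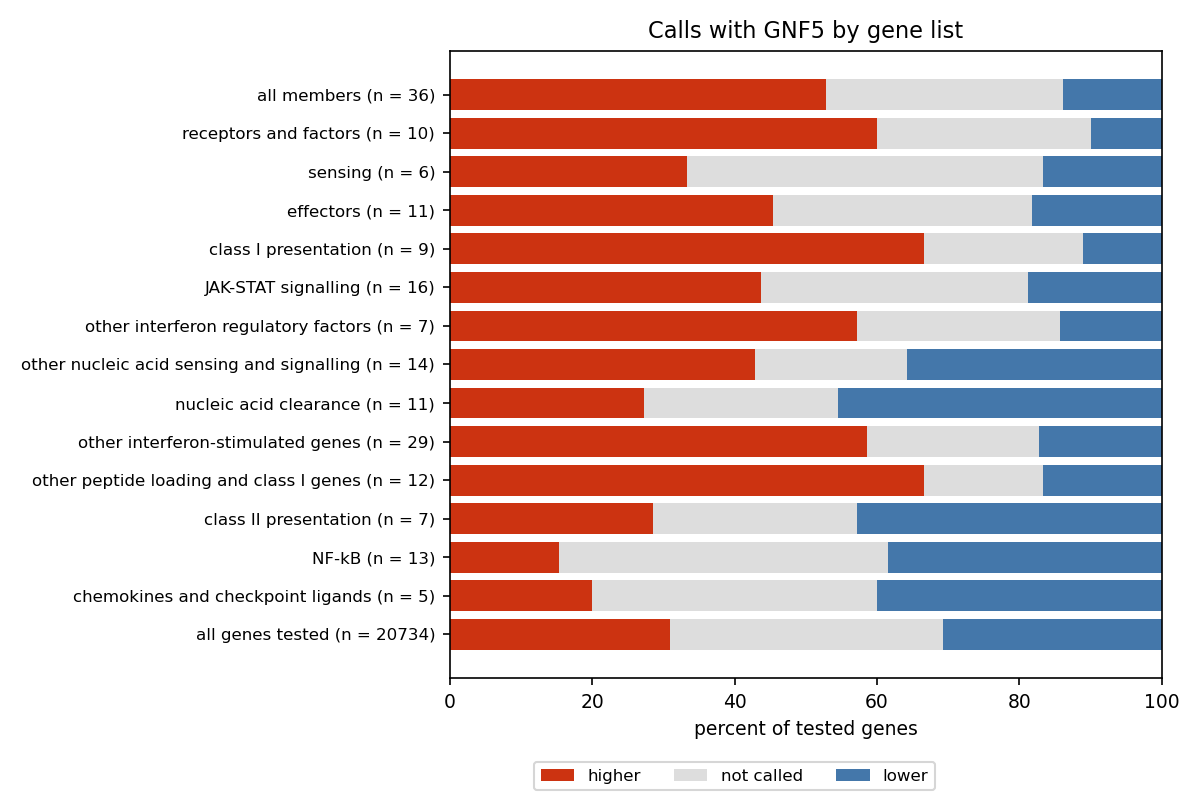
Percent of tested genes (x axis) called higher, not called or called lower with GNF5 in the member roles, the other pathway lists and all genes tested (y axis, with the number tested). Class I presentation and peptide loading have the widest higher segments, and NF-kB and chemokine genes the narrowest.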

How the data were processed

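The authors deposited raw counts per gene. Per the file headers, read pairs were counted as fragments with featureCounts 1.6.1, reverse-stranded, over exons summed by gene, on Ensembl release 101 of GRCh38, where reads that map to several places or overlap several genes are left out by default. STAR, Trim Galore, DESeq2, HTSeq and GRCh37 stand in the submitters' processing notes, with no roles. The headers were followed. The aligner settings are not given in the sources used here.

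A gene name table gave symbols for 60401 of 60671 IDs. Genes were tested with edgeR 4.0.16 in R 4.3.3 (quasi-likelihood test, robust, TMM, default expression filter, no covariate, Benjamini-Hochberg over 20734 genes, adjusted p under 0.05). The SE is the log2 fold change divided by the square root of F. Means carry the SD of 3 libraries. The members and lists were chosen with earlier results of these data known. In each role the called members with a mean log2 CPM of at least 1 are named, up to 6 by size of change, with the least changed one and 8 others (HLA-B, HLA-C, HLA-E, B2M, IFNAR1, IRF3, CGAS, STING1), and members near the count floor by their counts. IFIT1, ISG20, TAP1, TAP2 and NLRC5 lie under that level, and their values were added after they were seen. Each pathway list gives up to 2 called genes of lowest p at that level. Of these, 1 gene is not reported here. Alternatives were other scaling factors, DESeq2 1.42.0, limma-voom 3.58.1, other filters, a replicate block, a fit that is not robust and each library left out. Promoters are from RefSeq (GRCh38.p14). Libraries of a group were not copies of each other (chi-square of counts 3.18 to 8.76 per degree of freedom). Intervals cover counting error only.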

Additional observations from a re-analysis of the deposited data

How the results depend on the processing

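Of the 24 called members, 20 kept their call and direction under every alternative that tested them, and IFNAR1, RIGI, ISG20 and B2M lost it in some. None of the 12 members tested and not called gained a call. Members that the filter had removed could enter and be called, so that 21 members rose with no filter and 20 without DMSO replicate 1. With single libraries left out, the count of members that fell ran from 3 to 5, with the 3 reached without DMSO replicate 3. Likewise receptors and factors that fell ran from 0 to 1, sensing genes that rose from 1 to 2, and class I genes that fell from 0 to 1. The stricter filter (CPM of at least 1 in 3 libraries) tested 28 members and left 0 sensing genes lower and 3 effectors higher, since it removes low genes such as STING1 and IFIT1. Signs of uncalled members near 0 turned. With upper-quartile factors IRF3 and USP18 were at -0.0191 and -0.016, with the stricter filter at -0.0048 and -0.0015, and with limma-voom IFI27 was at -0.0734; the cause was not tested. With a library left out, IRF3 ran from -0.0079 to 0.0207, CGAS from -0.0697 to 0.386, IFI27 from -0.152 to 0.414 and USP18 from -0.0489 to 0.0632. Scaling moved the median of all genes by at most 0.026. With a replicate block 19 members rose and 5 fell, as without it. The labels say nothing of a shared culture. In their deviations from the group means, same-numbered libraries correlated at -0.116, -0.036 and 0.004, and differently numbered ones at -0.055 to 0.081. No shared shift by number was seen, but with 3 libraries per group these values cannot settle whether the libraries were paired. The depth limits CGAS, TAP1, HLA-E and the removed effectors.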
